A study of Mus musculus with 6 samples.

Results

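The genes described here are targets of p53, a transcription factor that responds to DNA damage and other stress. They were chosen as a list of 10 textbook targets: Cdkn1a, Mdm2, Ccng1, Gadd45a, Trp53inp1, Bbc3, Bax, Sesn1, Fas and Perp. Earlier results of these data were known when this list and the other gene lists below were chosen. Counts of genes past a threshold are therefore not independent of the choice of lists. A gene was kept where a probe set of the array was tied to 1 gene symbol, and the probe set with the highest mean stood for the gene. That gave 8 of the 10 genes, among 19938 genes with such a probe set. Cdkn1a was not analysed, because its probe set carries 2 symbols, and Bax was not tied to a probe set; no value is given for either. Each of the 8 genes had 1 probe set, so no choice between probe sets was needed.

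Messenger RNA was profiled in C2C12 myotubes, multinucleated muscle cells that form when this mouse myoblast line is differentiated in 2% serum. The study asked how loss of perilipin 2 (Plin2), a protein that coats lipid droplets, changes expression with and without fatty acids. All cells were transfected with 10 nM siRNA, either scrambled or against Plin2. The labels name only 1 siRNA treatment against Plin2, so loss of Plin2 cannot be told apart from other effects of that treatment. Each siRNA was combined with albumin (BSA) alone, 200 µM oleate on BSA or 200 µM palmitate on BSA, for 20 h, giving 6 conditions with 1 array each. The ratio of fatty acid to BSA was 2.5, and growth medium held 10% serum. Palmitate is saturated, and oleate has a single double bond. Values are log2 expression, so a difference of 1 is a doubling of signal.

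In unstressed cells p53 is kept low because Mdm2, a ubiquitin ligase that p53 itself induces, marks it for breakdown. When p53 is stabilised it raises genes that stop the cell cycle (Cdkn1a, Gadd45a, Ccng1), genes that promote cell death (Bax, Bbc3, Fas, Perp) and genes that adjust metabolism and autophagy (Sesn1, Trp53inp1). In muscle, exit from the cell cycle is part of differentiation, and Cdkn1a and other inhibitors of cyclin-dependent kinases hold myotubes in arrest. Several of these genes are also induced by other stress factors, among them ATF4 and FOXO proteins.

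Plin2 itself fell by 2.47 on the log2 scale (SE 0.08, 3 pairs, limma adjusted p = 2.32e-08), and the siRNA groups did not overlap. Array medians lay between 4.943 and 5.015, and correlations between arrays over all probe sets were 0.987 to 0.994. The mean log2 signal of 14 differentiated myotube markers was 11.69 to 11.95 with scrambled siRNA and 11.66 to 11.72 with Plin2 siRNA. Among these markers 8 fell (8.8% of all genes did), including Myog (-0.69) and Cdh15 (-0.62), and 2 rose (8.31% of all genes did), Mef2c (1.23) and Myod1 (0.46). The number that fell was 3 without either BSA array and 3 without the intensity trend. The same mean over 11 markers of undifferentiated myoblasts was 8.54 to 8.74 and 8.78 to 8.94; 5 rose, including Id3 (1.60), and 2 fell, Itga7 and Cd34. Over 10 fibroblast markers it was 8.48 to 8.53 and 8.35 to 8.45, and over the adipocyte, leukocyte and endothelial markers it lay between 4.01 and 4.36 in every array. The part of differentiation state in the results that follow was not tested, and in such bulk samples fewer cells of a type cannot be told apart from less RNA per cell.

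With Plin2 siRNA the p53 targets did not move together: Gadd45a, Fas and Mdm2 fell, Trp53inp1 and Ccng1 rose, and Sesn1, Bbc3 and Perp did not pass the test. Each change is the mean of the 3 differences between arrays of the same treatment, and its error is the spread of those differences, moderated by limma. In all, 5 of the 8 genes passed an adjusted p of 0.05, where 17.1% of 21789 probe sets did. The 3 that fell are to be read against 8.58% of probe sets, and the 2 that rose against 8.5%. When probe sets in the lowest 33.3% by mean were dropped, Perp among them, the count was 5 of 7 against 28.1%. The median change of the 8 genes was -0.08, and that of all 19938 genes 0.00. In the same 5 genes the 3 arrays of each siRNA did not overlap, which was so for 30.3% of probe sets (14.7% with Plin2 siRNA lower and 15.6% higher).

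**Figure D1:**
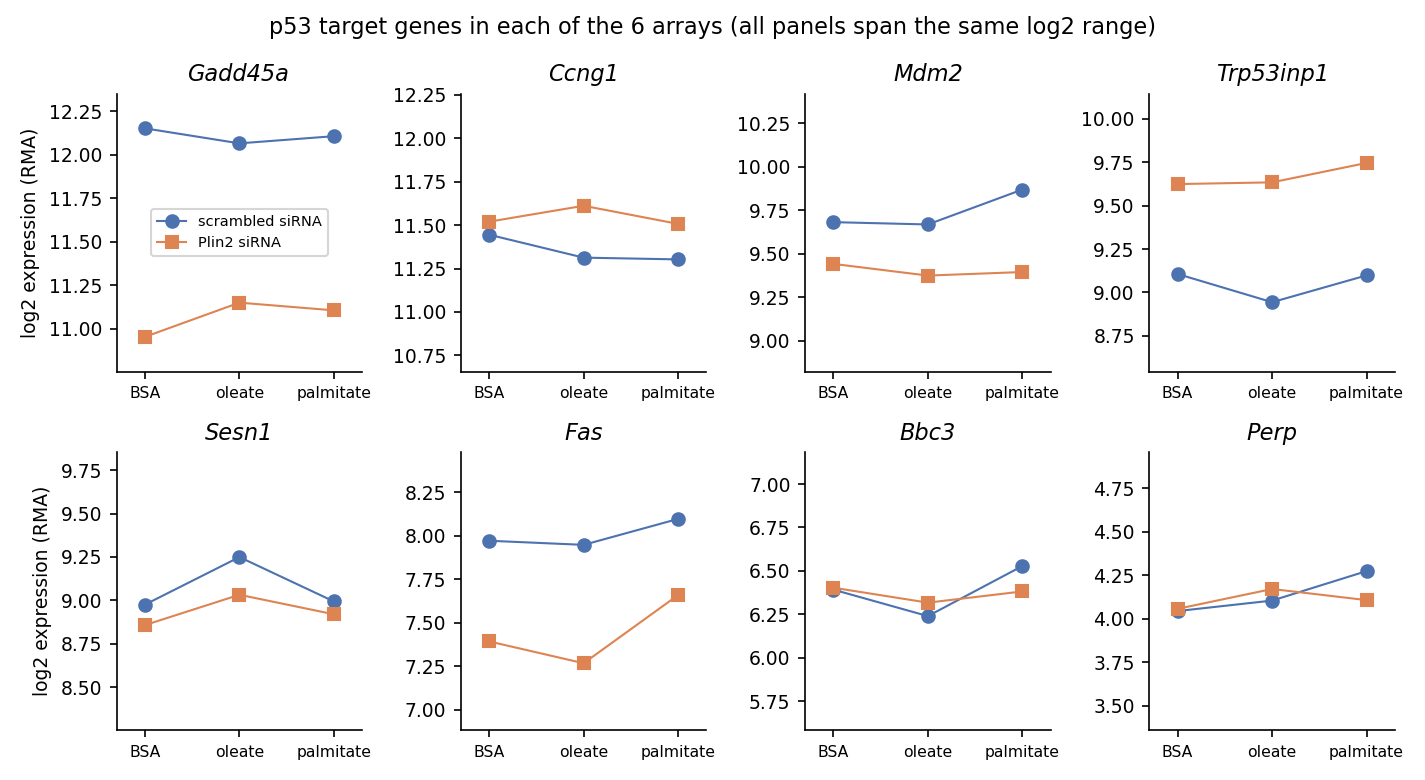
Log2 expression (vertical axis, the same span in every panel) of 8 p53 target genes in the 6 arrays, with BSA, oleate and palmitate along the horizontal axis; blue circles are scrambled and orange squares Plin2 siRNA, 1 array per point, and lines only join arrays of an siRNA. The siRNA groups stand apart for Gadd45a, Ccng1, Mdm2, Trp53inp1 and Fas, and they overlap for Sesn1, Bbc3 and Perp.

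The growth arrest gene Gadd45a changed most. Its protein binds PCNA and the mitotic kinase Cdk1 and activates stress kinases. With scrambled siRNA the signal was 12.15 (BSA), 12.07 (oleate) and 12.11 (palmitate). With Plin2 siRNA it was 10.95, 11.15 and 11.11. The lowest scrambled array therefore lay above the highest Plin2 siRNA array, and within an siRNA the arrays were close together. The log2 change was -1.04 (SE 0.06, n = 3 pairs, adjusted p = 1.5e-06 by limma), or 2.05-fold lower. It kept its call in each of 13 alternative settings, between -1.10 and -0.96.

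The 250 bases upstream of the Gadd45a start are shown because this gene changed most, with those of Fas, Mdm2 and Ccng1, the other genes past the threshold for which a window was at hand, beside it; Trp53inp1 has none here. Sequences are RefSeq windows on GRCm38.p6, read 5′ to 3′ on the strand of the gene. Capitals mark matches on either strand to the p53 response element half-site, to TGTTTAC (the FOXO core), to TGATGNAA (the composite element bound by ATF4 with C/EBP proteins) or to ATGCAAAT (the octamer bound by POU factors). The octamer was added to the search after the windows had been read.
Gadd45a (chr6:67037408-67037657, minus strand): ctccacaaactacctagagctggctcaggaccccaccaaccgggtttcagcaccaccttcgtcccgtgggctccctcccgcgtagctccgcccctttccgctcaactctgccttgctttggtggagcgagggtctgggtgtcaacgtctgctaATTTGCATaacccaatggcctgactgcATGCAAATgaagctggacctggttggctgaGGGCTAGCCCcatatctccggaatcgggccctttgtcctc
Fas (chr19:34290409-34290658, plus strand): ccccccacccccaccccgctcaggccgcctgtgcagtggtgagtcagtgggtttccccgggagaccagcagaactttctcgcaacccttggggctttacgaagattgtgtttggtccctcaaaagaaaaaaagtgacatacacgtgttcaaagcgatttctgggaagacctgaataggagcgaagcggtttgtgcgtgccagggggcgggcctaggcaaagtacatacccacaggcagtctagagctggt
Mdm2 (chr10:117710759-117711008, minus strand): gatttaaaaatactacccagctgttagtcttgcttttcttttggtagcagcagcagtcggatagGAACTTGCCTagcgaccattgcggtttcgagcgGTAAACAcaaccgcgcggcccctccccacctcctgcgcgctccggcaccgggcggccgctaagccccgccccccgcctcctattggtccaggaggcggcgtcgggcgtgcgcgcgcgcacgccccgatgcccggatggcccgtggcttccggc
Ccng1 (chr11:40755287-40755536, minus strand): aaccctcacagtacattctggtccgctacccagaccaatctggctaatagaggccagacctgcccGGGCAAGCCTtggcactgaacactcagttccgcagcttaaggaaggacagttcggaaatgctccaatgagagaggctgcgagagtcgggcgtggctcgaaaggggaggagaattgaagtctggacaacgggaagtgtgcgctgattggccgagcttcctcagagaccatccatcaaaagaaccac

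The half-site was in the windows of Gadd45a (GGGCTAGCCC, from base -40 counted from the start), Mdm2 (GAACTTGCCT, from base -186) and Ccng1 (GGGCAAGCCT, from base -185), and it occurred in 7.13% of 32851 upstream windows of this length. Over all 10 listed genes, 12 windows of 8 genes were searched and 6 held a half-site, among them 1 upstream of Sesn1, which did not pass the test. The Gadd45a window held the octamer at 2 places, where 1.6% of windows held it at all. Because the octamer was added after the windows had been read, that share is no test of its presence there. The Mdm2 window held the FOXO core on the opposite strand, a motif of 3.17% of windows. TGATGNAA, in 3.45% of windows, was in none of the 4. No match was found upstream of Fas, and none of the matches in the 4 windows overlap each other. A match is a run of letters and not evidence of binding, and many p53 sites of these genes are known to lie outside such windows, in introns for example.

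Mdm2, which holds p53 down, fell by less. Its log2 signal read 9.68 (BSA), 9.67 (oleate) and 9.87 (palmitate) under scrambled siRNA, against 9.44, 9.37 and 9.40 with Plin2 siRNA. Every Plin2 siRNA array was below every scrambled array. The log2 change was -0.34 (SE 0.07, n = 3 pairs, adjusted p = 0.0058 by limma), or 1.26-fold lower. Mdm2 missed the threshold narrowly when the intensity trend was dropped (adjusted p = 0.0522) or every probe set was fitted (0.0521).

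Fas encodes the death receptor of the cell surface that assembles the caspase 8 complex when its ligand binds. With scrambled siRNA the log2 signal read 7.97 (BSA), 7.95 (oleate) and 8.10 (palmitate), against Plin2 siRNA values of 7.39, 7.27 and 7.66. The groups did not overlap, and palmitate was the highest array of each siRNA. The log2 change was -0.57 (SE 0.08, n = 3 pairs, adjusted p = 0.00067 by limma), or 1.48-fold lower, and it kept its call in all 13 alternatives, between -0.63 and -0.51.

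Trp53inp1 rose. Its protein takes part in p53 phosphorylation in the nucleus and in autophagy in the cytoplasm. Its log2 signal read 9.11 (BSA), 8.94 (oleate) and 9.10 (palmitate) under scrambled siRNA, against 9.62, 9.63 and 9.75 (BSA, oleate, palmitate) with Plin2 siRNA. The lowest Plin2 siRNA array lay above the highest scrambled one. The log2 change was 0.62 (SE 0.07, n = 3 pairs, adjusted p = 8.75e-05 by limma), or 1.53-fold higher, with a call in all 13 alternatives (0.58 to 0.67).

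Ccng1 (cyclin G1), which recruits a phosphatase to Mdm2, was just past the threshold. With scrambled siRNA it stood at 11.44 (BSA), 11.31 (oleate) and 11.30 (palmitate), against Plin2 siRNA values of 11.52, 11.61 and 11.51. The groups did not overlap, although the BSA arrays differed by 0.08 only. The log2 change was 0.19 (SE 0.06, n = 3 pairs, adjusted p = 0.049 by limma). The call was lost in 12 of 13 alternatives, including each array left out in turn (adjusted p = 0.092 to 0.22), so the direction is that of all 3 pairs but the call is not secure.

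The other 3 targets did not pass the test. Sesn1, a sestrin that restrains mTORC1 signalling, was 8.98 (BSA), 9.25 (oleate) and 8.99 (palmitate) under scrambled siRNA, against 8.86, 9.03 and 8.92 with Plin2 siRNA. It was lower in each Plin2 siRNA array than in its partner, but the groups overlapped (change -0.14, 95% confidence interval -0.29 to 0.01, n = 3 pairs, limma adjusted p = 0.23). Bbc3 (PUMA), a BH3-only protein that sets off the mitochondrial death pathway, lay between 6.24 and 6.53 in the scrambled arrays and between 6.32 and 6.40 in the Plin2 siRNA arrays. Its change was -0.02 (interval -0.24 to 0.20). Perp, a membrane protein of desmosomes, lay between 4.04 and 4.27 and between 4.06 and 4.17, among the lowest 33.3% of probe sets by mean, where signal is hard to tell from background. Its change was -0.03 (interval -0.28 to 0.22). For both genes the groups overlapped and the pairs differed in sign.

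**Figure D2:**
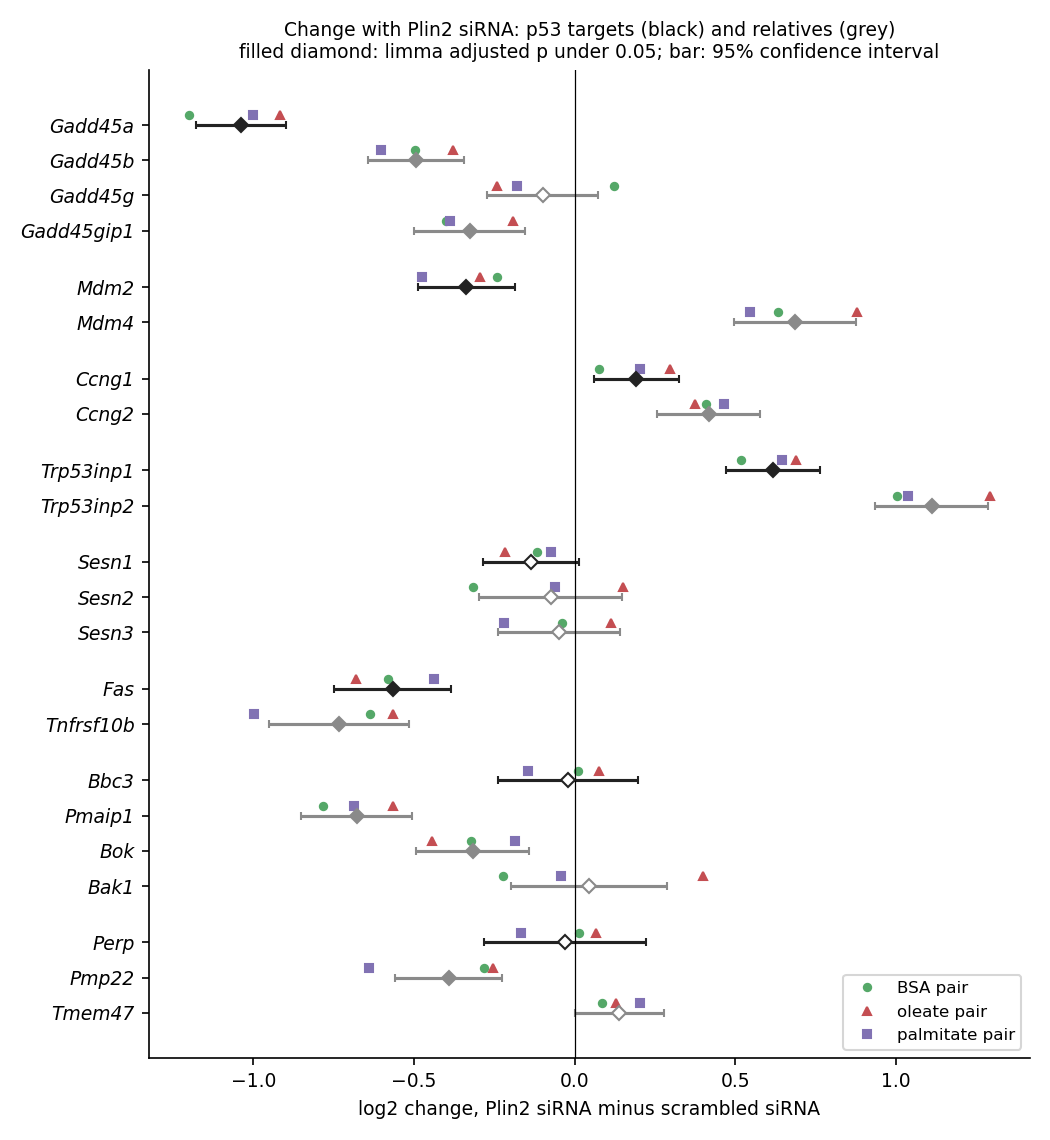
Log2 change with Plin2 siRNA (horizontal axis) for the 8 p53 targets (black) and related genes (grey); diamonds are the limma change with its 95% confidence interval, filled where adjusted p is under 0.05, and small symbols are the differences in BSA (circle), oleate (triangle) and palmitate (square). Gadd45a is furthest to the left at -1.04, Trp53inp2 furthest to the right at 1.11, and Mdm2 and Mdm4 lie on opposite sides of 0. The grey genes are not the same set as the relatives counted in the text. Tnfrsf10b and Pmaip1 are drawn but not counted there, and Cdkn1b and Cdkn1c are counted but not drawn.

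Relatives of the targets were examined next, since paralogues differ in how far they depend on p53. The 14 relatives measured included Cdkn1b, Cdkn1c and Gadd45gip1, which is a partner protein and not a paralogue. Of these, 4 rose and 5 fell, Gadd45gip1 among the fallers, against 8.31% and 8.8% of 19938 genes. The counts went down to 3 and 2 without the intensity trend and when every probe set was fitted, to 3 and 3 without either BSA array, and 3 rose and 4 fell without either oleate array.

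In the Gadd45 family, Gadd45b stood at 9.86 (BSA), 9.60 (oleate) and 10.06 (palmitate) under scrambled siRNA, against 9.36, 9.22 and 9.46 with Plin2 siRNA. The Plin2 siRNA arrays were all lower (change -0.49, SE 0.07, limma adjusted p = 0.00044). Gadd45g did not pass the test (-0.10, interval -0.27 to 0.07), and the partner protein Gadd45gip1 fell by 0.33 (SE 0.08, adjusted p = 0.014), a call lost without either BSA array.

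Mdm4, the relative of Mdm2 that binds p53 and masks its activation domain, went the other way from Mdm2. It was 7.58 (BSA), 7.48 (oleate) and 7.59 (palmitate) under scrambled siRNA, against 8.21, 8.36 and 8.13 with Plin2 siRNA. All 3 arrays with Plin2 siRNA were higher (change 0.69, SE 0.09, n = 3 pairs, limma adjusted p = 0.00025).

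Trp53inp2, an autophagy protein and the paralogue of Trp53inp1, rose by 1.11 (SE 0.08, limma adjusted p = 4.13e-06), from 7.88 to 8.12 in scrambled arrays to 8.93 to 9.17 in Plin2 siRNA arrays. Ccng2, a cyclin G better known as a FOXO target, rose by 0.42 (SE 0.07, adjusted p = 0.0022), from 7.97 to 8.14 to 8.41 to 8.51. Both paralogues moved in the direction of the member of their family listed above, and their groups did not overlap. For Ccng2 that member is Ccng1, whose own call is not secure. Sesn2 (-0.07, interval -0.30 to 0.15) and Sesn3 (-0.05, interval -0.24 to 0.14) did not pass, as Sesn1 did not. Pmp22, a membrane protein related to Perp, fell by 0.39 (SE 0.08, limma adjusted p = 0.0042). Its call was lost without the intensity trend and when every probe set was fitted.

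Genes that act on p53 were counted together with p53 relatives such as Trp63. Of these, 3 of 19 rose and 1 fell, against 8.31% and 8.8% of all genes, with a median of -0.02. Without either oleate array 3 rose and 3 fell. Trp63, the p53 family member best known from epithelia, rose most. It stood at 6.92 (BSA), 7.29 (oleate) and 6.54 (palmitate) under scrambled siRNA, against 8.66, 8.52 and 8.34 with Plin2 siRNA. The groups were well apart (change 1.59, SE 0.11, n = 3 pairs, limma adjusted p = 3.14e-06). Mdm4 and the p53 ubiquitin ligase Rchy1 (0.36, SE 0.07) also rose, and Wrap53, a telomerase and Cajal body protein whose gene overlaps that of p53, fell (-0.53, SE 0.10). The damage kinases Atm (-0.03, interval -0.24 to 0.18) and Chek2 (0.20, interval -0.07 to 0.47) did not pass. Trp53 was not analysed here.

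Among 33 further p53 targets, 9 fell and 1 rose, where 8.8% of all genes fell and 8.31% rose, with a median of -0.15. The fallers included Cgref1, a growth regulator (-0.92, SE 0.12), the polo-like kinase Plk2 (-0.75, SE 0.07), the death receptor Tnfrsf10b (-0.73, SE 0.10) and the BH3-only gene Pmaip1 (-0.68, SE 0.08). Ei24, an autophagy gene of the endoplasmic reticulum, rose (0.57, SE 0.08). The other fallers were Plk3 (-0.57), Ckap2 (-0.46), Polk (-0.37), Eda2r (-0.33) and Btg2 (-0.29). Some well-established targets, such as Phlda3 (-0.15, interval -0.29 to -0.02, limma adjusted p = 0.13), Zmat3 (-0.06) and Ddb2 (-0.26, adjusted p = 0.16), did not pass after adjustment. At an unadjusted limma p under 0.05, 14 were lower and 1 higher. The number that fell was 5 when every probe set was fitted and 6 without the intensity trend or without either palmitate array.

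**Figure D3:**
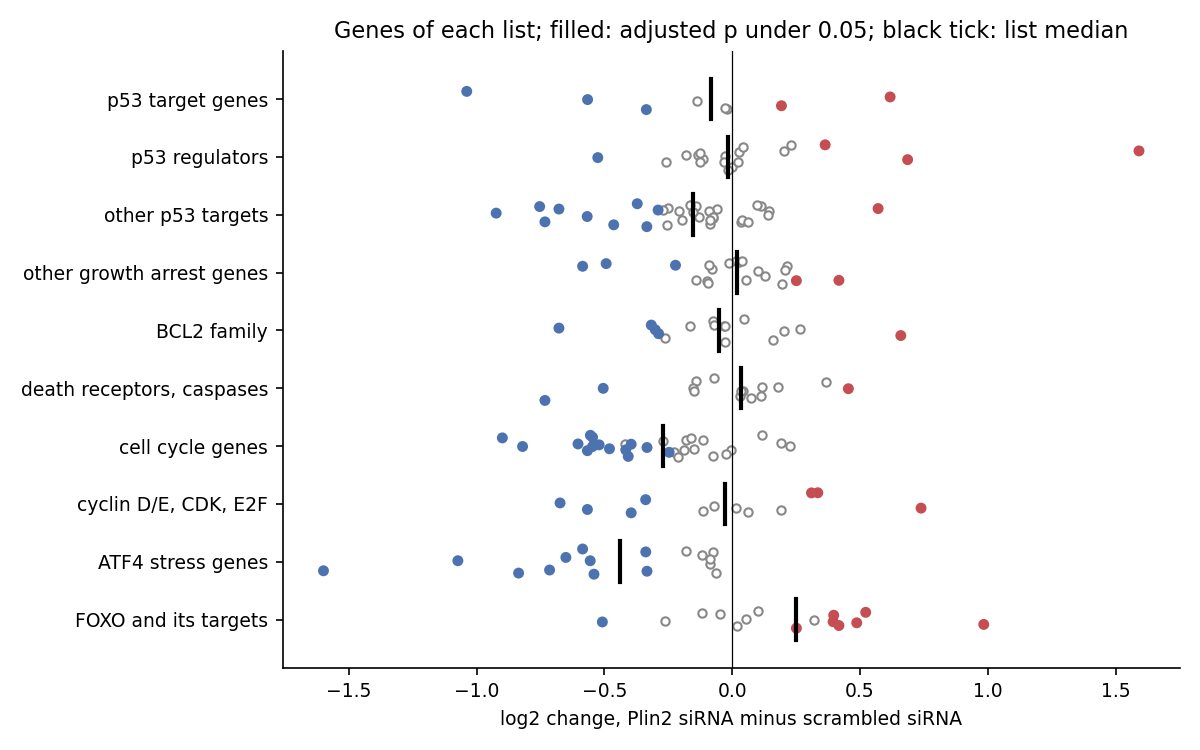
Log2 change with Plin2 siRNA (horizontal axis) of each measured gene in 10 lists (rows); filled points are genes with a limma adjusted p under 0.05 (red higher, blue lower), open points did not pass, vertical scatter is only for visibility, and the black tick is the list median. The medians are lowest for the ATF4 stress genes (-0.44) and the cell cycle genes (-0.27) and highest for FOXO and its targets (0.25).

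Death pathway genes are to be read against the 8.8% of all genes that fell and the 8.31% that rose. Of 16 BCL2 family genes 4 fell, Pmaip1, Bok (-0.32), Bnip3l (-0.30) and Bid (-0.29), and 1 rose, the survival gene Bcl2l1 (0.66, SE 0.07, limma adjusted p = 6.62e-05). Bcl2l1 lay between 8.34 and 8.53 in scrambled arrays and between 8.97 and 9.18 in Plin2 siRNA arrays, with no overlap. The number that fell was 1 without the intensity trend and without either BSA array, 2 when every probe set was fitted, and 6 without either palmitate array; Bok, Bnip3l and Bid were the genes that lost their calls without either BSA array. In the Fas pathway the initiator caspase Casp8 fell (-0.50, SE 0.09) as Fas and Tnfrsf10b did, and the executioner Casp6 rose (0.45, SE 0.08). Of 15 other receptor and caspase genes, Tnfrsf10b and Casp8 fell and Casp6 rose, 3 genes where 17.1% of all genes passed, and the median was 0.04. Without either BSA or either oleate array 2 rose and 2 fell. The adaptor Fadd (0.11) and the inhibitor Cflar (0.07) did not pass.

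Of 20 growth arrest genes outside the p53 list, 2 rose and 3 fell, counts close to the 8.31% and 8.8% of all genes, with a median of 0.02. Without either BSA array 1 rose and 2 fell. Ccng2, Cdkn1b, Cdkn1c and Gadd45b, all past the threshold in the main fit, were also counted among the relatives above. The kinase inhibitor Cdkn1c, which acts in muscle differentiation, was 9.27 (BSA), 8.75 (oleate) and 8.94 (palmitate) under scrambled siRNA, against 8.68, 8.29 and 8.24 with Plin2 siRNA. It was lower in every Plin2 siRNA array (change -0.59, SE 0.07, n = 3 pairs, limma adjusted p = 0.00026). Its relative Cdkn1b rose by 0.25 (SE 0.07, adjusted p = 0.029), a call lost in 8 of 13 alternatives, among them either BSA or either oleate array left out. The others past the threshold were Ccng2, Gadd45b and the antiproliferative Tob1 (-0.22), whose call was lost without either BSA or either oleate array. The pocket proteins Rb1 (0.01) and Rbl2 (0.21, adjusted p = 0.086) did not pass.

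Genes of proliferation, which p21 and the DREAM complex repress, fell or did not pass. Of 29 measured, 14 fell and 0 rose by limma, where 8.8% of all genes fell and 8.31% rose, with a median of -0.27. At an unadjusted p under 0.05, 16 were lower and 1 higher. The number that fell was 5 when every probe set was fitted, 10 without either palmitate array and at most 15, and 1 rose without either oleate array. The replication genes Mcm6 (-0.90, SE 0.10), Rrm2 (-0.82, SE 0.07) and Pcna (-0.60, SE 0.07) and the cyclin Ccne2 (-0.57, SE 0.12) fell most. Of 12 G1 phase genes (cyclins, kinases, E2F factors and Rb1), 3 rose and 4 fell, to be read against the same shares of all genes. When every probe set was fitted 1 rose and 1 fell, and without either oleate array 4 rose and 3 fell. Ccnd3, the D cyclin of differentiating muscle, rose most (0.74, SE 0.07), and E2f2 fell most (-0.67, SE 0.09).

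Genes of the ATF4 and FOXO stress pathways were listed separately. Of 16 ATF4 stress genes, 10 fell and 0 rose by limma, where 8.8% of all genes fell and 8.31% rose, with a median of -0.44; at an unadjusted p under 0.05, 11 were lower and 0 higher. The number that fell was 5 when every probe set was fitted and 7 without either BSA array. Atf3 was 6.68 (BSA), 6.71 (oleate) and 7.61 (palmitate) under scrambled siRNA, against 5.32, 5.44 and 5.44 with Plin2 siRNA (change -1.60, SE 0.15, limma adjusted p = 3.69e-05). Mthfd2 (-1.07), Nupr1 (-0.84) and Slc7a11 (-0.71) fell too, Atf4 itself fell by 0.33 (a call lost without either BSA array), and Ddit3 did not pass (-0.09). Of 15 FOXO genes and targets, 7 rose and 1 fell, where 8.31% of all genes rose and 8.8% fell, with a median of 0.25. When every probe set was fitted 4 rose, and without either palmitate array 8 rose and 2 fell. Txnip (0.98), Cited2 (0.52), Pik3ip1 (0.49) and Ccng2 rose most, and Foxo1 itself (0.39) and Cdkn1b (0.25) rose too. The atrophy ligases went opposite ways, as Fbxo32 rose (0.40) and Trim63 fell (-0.51). These values stand beside the fall of Gadd45a and the rise of Ccng2; their part in those changes was not tested.

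No p53 target passed the test with either fatty acid. With oleate 0 of 8 passed, where 0.0734% of probe sets did; 1, Sesn1, had an unadjusted p under 0.05. Sesn1 was higher in oleate than in BSA by 0.27 with scrambled and by 0.17 with Plin2 siRNA (change 0.22, interval 0.04 to 0.41, n = 2 pairs, limma adjusted p = 0.69). The other oleate changes lay between -0.12 (Bbc3) and 0.09 (Perp), and over all 8 genes the 95% confidence intervals reached from -0.39 to 0.41. The intervals differed between genes, from -0.12 to 0.23 for Gadd45a and from -0.39 to 0.15 for Bbc3.

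With palmitate 0 of 8 passed, where 0.00918% of probe sets did, and 0 had an unadjusted p under 0.05. Changes ran from -0.08 for Ccng1 to 0.20 for Fas (interval -0.03 to 0.42, n = 2 pairs, limma adjusted p = 0.94). The intervals reached from -0.24 to 0.45. Mdm2 was higher in palmitate than in BSA by 0.19 with scrambled siRNA and lower by 0.05 with Plin2 siRNA.

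**Figure D4:**
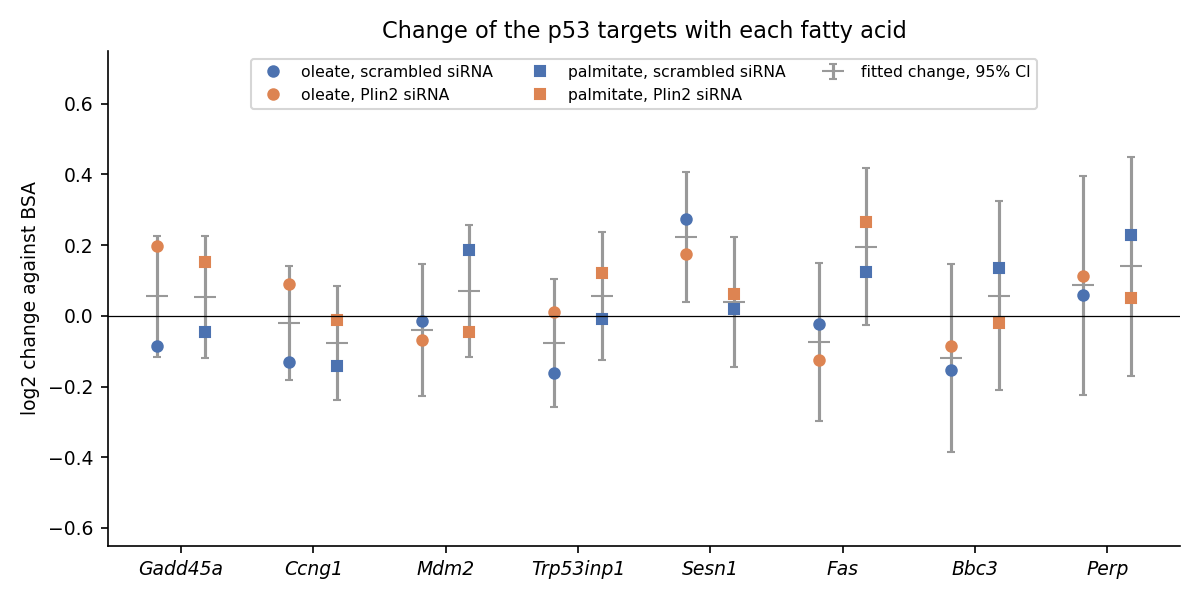
Log2 change against BSA (vertical axis) of the 8 p53 targets with oleate (circles) and palmitate (squares), in cells with scrambled (blue) and Plin2 (orange) siRNA, 1 array pair per point; grey bars are the limma change over both siRNAs with its 95% confidence interval. Intervals cross 0 for all genes and both fatty acids except Sesn1 with oleate (0.04 to 0.41), which did not pass after adjustment.

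Compared directly at 200 µM and 20 h, no p53 target passed the test between palmitate and oleate (0 of 8), where 0.262% of probe sets did. Fas was higher in palmitate than in oleate in both pairs (change 0.27, interval 0.05 to 0.49, n = 2 pairs, limma adjusted p = 0.46), and Sesn1 was lower (-0.18, interval -0.37 to 0.00, adjusted p = 0.54). Of the relatives, Gadd45g passed. It was 9.47 (BSA), 9.30 (oleate) and 9.90 (palmitate) under scrambled siRNA, against 9.59, 9.06 and 9.72 with Plin2 siRNA. Palmitate was the higher of the fatty acids by about the same amount with each siRNA (change 0.63, SE 0.10, n = 2 pairs, adjusted p = 0.030). Gadd45g lost this call in 4 alternatives: no intensity trend (adjusted p = 0.404), all probe sets fitted (0.539), quantile normalization (0.0603) and scrambled palmitate left out (0.156).

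The interaction of siRNA with fatty acid (both acids together) was called for 0 of the 8 genes, where 0% of probe sets passed by limma and 0 of the 8 had an unadjusted p under 0.05. The difference in fatty acid response between siRNAs ran from -0.14 for Mdm2 to 0.24 for Gadd45a. The intervals reached from -0.65 to 0.57, so this design leaves room for differences of that size.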

How the data were processed

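The authors deposited log2 expression values, 1 per probe set of Affymetrix whole-transcript arrays, made with RMA per the submitters' processing notes; its version is not given in the sources used here, and the log2 base was read from RMA and the range of values. RNA (100 ng, integrity number above 8) came from 6 samples; nothing says that they were separate cultures, so a p-value reflects only how these arrays scatter, which may be technical, and their number limits the precision. Values were used as deposited. GEO's platform annotation tied 21789 of 35556 probe sets to 1 symbol and 1621 to several, and 12146 are unnamed here. limma 3.58.1 in R 4.3.3 was fitted to all 6 arrays with treatment and siRNA as terms and an intensity trend (2 residual and 9.21 prior degrees of freedom; the interaction model has 1 residual), with Benjamini-Hochberg adjustment over the 21789 probe sets. The fit was tested on simulated data. Named genes were the p53 targets, Plin2, relatives and, per list, up to 4 genes past the threshold with the largest change in each direction; other genes were picked after their values were seen. The members and lists were chosen with earlier results of these data known, and lists share genes. Alternatives were no trend, all probe sets, a filter on low signal, quantile normalization, median centring, the mean of a gene's probe sets, no treatment term, only the 4 arrays of a fatty acid and BSA, and each array left out.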

Additional observations from a re-analysis of the deposited data

Results flagged for a closer look

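For Gadd45a both fatty acids lay below BSA with scrambled siRNA (-0.09 with oleate, -0.05 with palmitate) and above it with Plin2 siRNA (0.20 and 0.15), a difference in mean response of 0.24. For Trp53inp1 the same held (-0.16 and -0.01 with scrambled siRNA, 0.01 and 0.12 with Plin2 siRNA), a difference of 0.15. Both genes were picked out because the arrays of 1 siRNA moved one way and those of the other siRNA the opposite way; each response rests on 1 array per condition, and the responses of an siRNA share its BSA array. The interaction term gave a limma adjusted p of 1 for both.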

How the results depend on the processing

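The count of 5 p53 targets called with Plin2 siRNA was 3 without the intensity trend and 3 with all probe sets in the fit, where Mdm2 and Ccng1 lost their calls; it was 4 to 4 with each array left out. The counts of 0 for oleate, palmitate, their difference and the interaction stayed at 0 wherever they were run; the interaction has no residual degrees of freedom without an array and was not run so. Of 103 recomputed siRNA changes of the 8 genes, 14 lost their call and 0 reversed a called direction; 26 changes that passed no threshold changed sign over all comparisons. Leaving out an array removes its partner's information too, so the siRNA change was the same whichever array of a pair was left out. Those fits are therefore not all separate checks. The labels give no replicate numbers to block on; arrays were paired by treatment through the treatment term, and without that pairing the count was 4. With 2 residual degrees of freedom most of the error is borrowed from other probe sets. Fits with an array left out have fewer still, so a call kept there says little about a gene's own scatter.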
